A study of Glycine max with 12 samples.

Results

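The genes described here are the soybean members of a pair of nitrogen transporter families, the POT family (Pfam PF00854, which holds the plant NPF nitrate and peptide transporters) and the ammonium transporter family (PF00909). They were chosen by the Pfam accession in the description of each annotated gene, which gave 145 genes of 52872 annotated genes, 128 with PF00854 and 17 with PF00909. The rule uses the annotation alone. RNA-seq was carried out on the apical 1 cm of roots of hydroponically grown Glycine max seedlings in 4 groups of 3 libraries each. Mock seedlings received no hormone. The BL group received brassinolide, an active brassinosteroid, at 0.01 nM for 0.5 days. The PPZ group received propiconazole, an inhibitor of brassinosteroid synthesis, at 0.1 μM for 2.5 days, and the PPZ plus BL group (PPZ_BL in the plots) was kept on PPZ at 0.1 μM over 2 days before BL at 0.01 nM was added over the last 0.5 days. All groups share the cultivar that the labels give as Wm82, the seedling age and the hydroponic medium, while the study's methods name another genotype. Both eBL and BL are named in the description of the design, the sample label of PPZ plus BL can be read as the opposite order of treatment, and the labels do not say whether mock was matched to the long or the short treatment. Where PPZ is compared with BL, the agent and the length of treatment cannot be told apart.

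Plant roots take up nitrogen mainly as nitrate and ammonium. NPF proteins are membrane carriers that move nitrate, small peptides, chloride or plant hormones together with protons, and in Arabidopsis the best known member, NRT1.1, both transports and senses nitrate. Ammonium transporters of the AMT1 type carry most high-affinity ammonium uptake into Arabidopsis roots, whereas AMT2 contributes there to the movement of ammonium from root to shoot. Nitrate taken up is reduced to nitrite and then to ammonium, and glutamine synthetase and glutamate synthase build the ammonium into amino acids. Brassinosteroids are steroid hormones that act on root growth, and the study asked how their level affects growth and the balance of nutrients in soybean.

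Total counts lay between 18450894 and 24815541 per library. Mock 1 stood apart from the other mock libraries on the first principal component of all genes, which held 43% of the variance, at -61.84 against -114.07 for mock 2 and -120.36 for mock 3. Counts of members called against mock are therefore given with and without it, and those of the other gene lists where its omission moved them by more than 1.5 times. The tissue was checked by summed CPM, which are counts scaled to library size after TMM scaling of all 12 libraries. Cyclin genes, a mark of dividing cells, summed to between 704 and 1066 CPM over the 12 libraries. Leaf markers were not at 0, since chlorophyll a/b binding genes summed to between 168 and 638 CPM and Rubisco small subunit genes to between 151 and 408 CPM. Globin genes, a family that includes nodule leghaemoglobins and other haemoglobins, summed to between 844 and 2182 CPM. RNA came from whole root tips, so that fewer cells of a type and less RNA per cell cannot be told apart.

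Between genes, levels were compared as FPKM, the values scaled to gene length and to library depth that the authors deposited. Of the 145 genes, 24 had no reads in any library, 22 of the POT family and 2 of the ammonium transporters. Expression was concentrated in few genes. In the POT family, 10 genes had a mean of at least 10 FPKM over the 12 libraries, 38 had between 1 and 10 FPKM, and 58 had reads but less than 1 FPKM. The 6 most expressed POT genes held 63.3% of the summed FPKM of the family. They were Glyma.01G210500 at 118 FPKM, Glyma.11G031500 at 83.6 FPKM, Glyma.03G122500 at 60.7 FPKM, Glyma.10G183900 at 21.4 FPKM, Glyma.15G017000 at 18.2 FPKM and Glyma.08G091600 at 18.1 FPKM. Among ammonium transporters, AMT1.2 (Glyma.10G132300) led with 36.6 FPKM, followed by AMT1.1 (Glyma.20G082450) with 16.7 FPKM, and this pair held 62.1% of the summed FPKM of its family. AMT2.1 (Glyma.07G153800) at 9.51 FPKM and AMT1.3 (Glyma.10G167800) at 9.49 FPKM came next.

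**Figure D1:**
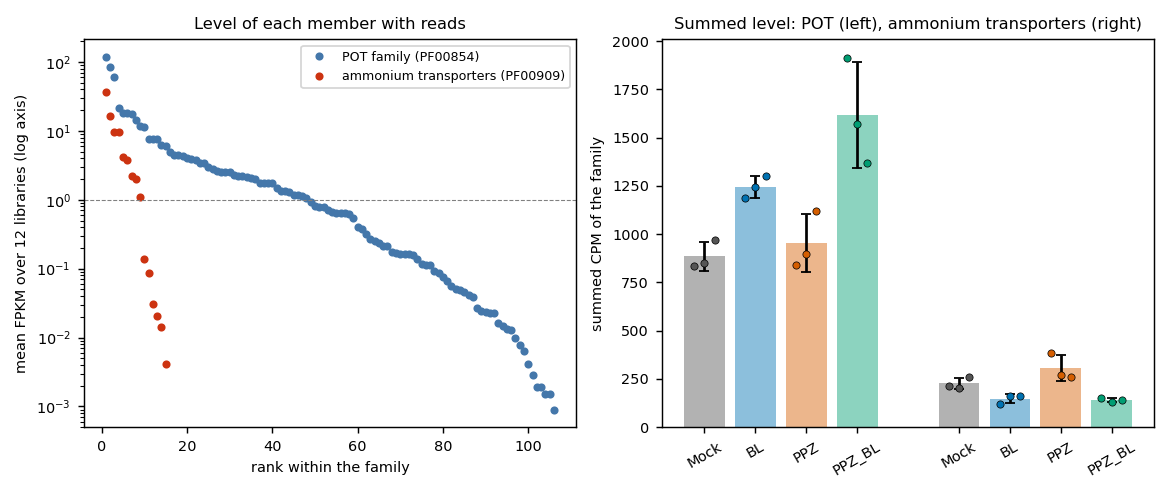
Left, the mean FPKM over 12 libraries of each member with reads, on a log axis against its rank in the family, with a dashed line at 1 FPKM. Right, summed CPM of each family in the 4 groups, where bars are means, error bars are SD and points are the 3 libraries. The POT sums of the 3 PPZ_BL libraries, 1369 to 1913 CPM, lie above all mock sums, which reach 968 CPM, while the ammonium transporter sums of BL and PPZ_BL, at most 161 CPM, lie below all mock sums, which start at 205 CPM.

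Summed over each family, CPM were higher for POT and lower for ammonium transporters in both groups that received BL, which rested on few genes. The POT sum was 884 ± 72.8 CPM (SD, n = 3) in mock, 1245 ± 56.7 CPM after BL, 953 ± 149 CPM after PPZ and 1618 ± 275 CPM after PPZ plus BL. The libraries with BL did not overlap those without it. The ammonium transporter sum was 227 ± 29.0 CPM in mock, 148 ± 23.4 CPM after BL, 307 ± 67.9 CPM after PPZ and 141 ± 9.7 CPM after PPZ plus BL, again with no overlap between libraries with and without BL. These sums follow the few most expressed genes. AMT1.2 alone was at 119 ± 22.1 CPM in mock, 28.7 CPM after BL, 163 CPM after PPZ and 27.5 CPM after PPZ plus BL. Against mock, its mean fell by more CPM in both groups with BL than the whole sum did. The other ammonium transporters together thus did not fall there. Most of the POT rise over mock came from Glyma.01G210500, Glyma.11G031500 and Glyma.03G122500. They were at 119, 144 and 38.2 CPM in mock and 276.5, 201 and 176 CPM after BL. No test was run on a sum. Chlorophyll a/b binding genes also had their higher sums in both groups with BL, at 240 ± 76.2 CPM in mock, 428 ± 60.9 CPM after BL, 219 ± 34.4 CPM after PPZ and 555 ± 102 CPM after PPZ plus BL. In this list of 39 genes, 4 of 27 tested were called higher after BL and 14 of 26 after PPZ plus BL against PPZ, and none lower. Against mock, 1 was higher and 1 lower of 24 tested after PPZ and 5 were higher of 26 after PPZ plus BL. Without mock 1, 10 of 29 were higher after BL and 13 of 27 after PPZ plus BL. The Rubisco small subunit sum moved otherwise, at 368 ± 37.6 CPM in mock and between 156 and 189 CPM as means of the other groups. Of 4 genes tested, 2 were called lower after PPZ and 3 higher after PPZ plus BL against PPZ. These called genes held little of the sum, at 36.0, 5.23 and 3.17 CPM in mock, and did not follow it. The highest of them, Glyma.19G046800, was at 36.1 CPM after BL, 5.18 CPM after PPZ and 43.6 CPM after PPZ plus BL. Without mock 1, 1 of 5 was higher and 1 lower after BL, and 1 higher and 2 lower after PPZ. The globin sum, like the ammonium transporter sum, was lowest with BL and highest after PPZ, at 1712 ± 217 CPM in mock, 1042 ± 175 CPM after BL, 2066 ± 108 CPM after PPZ and 982 ± 175 CPM after PPZ plus BL. Of 2 globin genes tested, 1 was called lower for PPZ plus BL against PPZ. It was Glyma.11G121700, which held only 25.2 CPM of the mock sum. The part of these marker genes in the transporter results was not tested.

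Genes were tested between groups with edgeR's quasi-likelihood test on the 6 libraries of each comparison, and a gene was called when its Benjamini-Hochberg adjusted p was 0.01 or less and its fold change at least 3, or 1.58 on the log2 scale. Only genes that passed a filter on low counts were tested, 76 to 79 of the 145 in each comparison of a pair of groups. The 3 comparisons with mock share the mock libraries, and the comparisons of PPZ with mock, of PPZ plus BL with PPZ and of PPZ with BL share the PPZ libraries.

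After BL, 13 of 79 tested members were called against mock, 6 higher and 7 lower, or 16.5% beside 7.98% of all annotated genes tested (4.72% higher, 3.26% lower). The PPZ group had 14 of 76 members called against mock, in equal parts (7 higher, 7 lower), or 18.4% beside 9.14% of all genes (6.33% higher, 2.81% lower). After PPZ plus BL, 13 of 78 were called, 9 higher and 4 lower, or 16.7% beside 6.84% (3.84% higher, 3% lower). PPZ plus BL against PPZ gave 12 of 77, 5 higher and 7 lower, or 15.6% beside 7.73% (2.15% higher, 5.58% lower). PPZ against BL gave 10 of 76, 7 higher and 3 lower, or 13.2% beside 6.82% (4.82% higher, 2% lower). With library size as the only scaling the split turned to 5 higher and 6 lower, beside 4.1% higher and 2.79% lower of all genes. The share of members called was thus above that of all genes in each of the 5 comparisons, and no test of that difference was made. The median log2 fold change of the members tested against mock was 0.14 after BL, 0.42 after PPZ and 0.35 after PPZ plus BL, where that of all genes was between 0.0 and 0.01. Without mock 1, the counts were 24 of 85 members after BL, 21 of 80 after PPZ and 23 of 82 after PPZ plus BL, or 28.2%, 26.2% and 28.0%, beside 12.6%, 12.3% and 11.9% of all genes. They split into 15 higher and 9 lower after BL, 11 and 10 after PPZ, and 16 and 7 after PPZ plus BL. Leaving out BL 2 gave the lowest count after BL, 5, or 6.25% beside 2.59% of all genes. Leaving out PPZ plus BL 2 gave the lowest after PPZ plus BL, 5, or 6.17% beside 1.8%. After PPZ, the lowest count was 7, without mock 2, PPZ 1 or PPZ 2. These fits gave 9.09%, 8.75% and 8.64% of members beside 4.79%, 5.13% and 4.46% of all genes. A total of 23 members were called in at least 1 comparison with mock, and none was called in opposite directions in a pair of them. Of these, 5 were called in all 3 comparisons, 2 higher and 3 lower. The same counts over all genes were not made. Since the 3 comparisons share the mock libraries, agreement in direction between them is not a trait of these members.

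**Figure D2:**
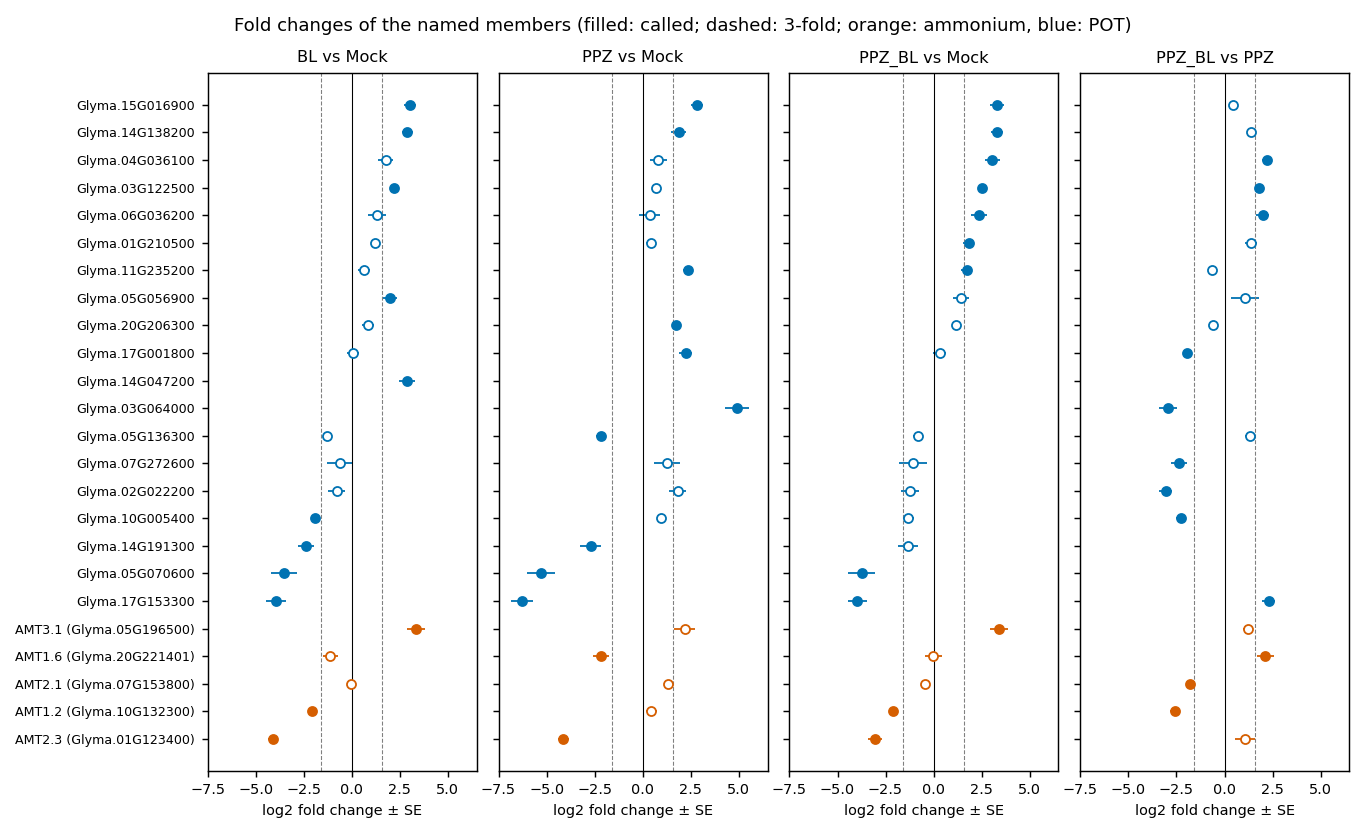
Log2 fold change with its standard error for the named members that were called in at least 1 of 4 comparisons, 1 panel for each comparison, with orange for ammonium transporters and blue for POT genes. Filled points are called, open points are not, and dashed lines mark a fold change of 3. AMT1.2 lies at -2.06 after BL and -2.58 for PPZ plus BL against PPZ and is open after PPZ, while AMT2.3 is filled and below 0 in all 3 comparisons with mock.

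Ammonium transporters of the AMT1 type moved in different directions. AMT1.2 (Glyma.10G132300, chromosome 10, 35820110 to 35822434), the most expressed of them, fell after BL whether or not PPZ had been given. In mock it stood at 113, 102 and 144 CPM, in BL at 26.8, 30 and 29.2 CPM, in PPZ at 233, 146 and 111 CPM, and in PPZ plus BL at 25, 28.9 and 28.7 CPM. The libraries with BL reached at most 30 CPM and those without it started at 102 CPM, while mock and PPZ overlapped. The fold change was -2.06 ± 0.16 (SE) on the log2 scale after BL (adjusted p = 5.17e-04) and -2.58 ± 0.26 for PPZ plus BL against PPZ (adjusted p = 2.85e-04), and both calls held without any 1 library. After PPZ alone it was 0.45 ± 0.28 (adjusted p = 0.235). The BL difference with PPZ did not pass the test of a difference from that without PPZ (-0.51 ± 0.32, adjusted p = 0.241, interaction term).

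AMT1.3 (Glyma.10G167800, chromosome 10, 40314343 to 40316257) had the opposite pattern. It was at 11.3, 7.98 and 12.3 CPM in mock and at 8.96, 9.54 and 11 CPM in PPZ, against 22.4, 21.9 and 29.4 CPM in BL and 34.5, 28.3 and 21.5 CPM in PPZ plus BL. The groups with BL did not overlap those without it. The rise of 1.22 ± 0.20 after BL (adjusted p = 3.95e-03) and of 1.5 ± 0.19 for PPZ plus BL against PPZ (adjusted p = 7.57e-04) passed the adjusted p but not the fold threshold, so that neither is called. AMT1.4 and AMT1.5, which follow it on chromosome 10, had means of 0.138 and 0.0875 FPKM.

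AMT1.6 (Glyma.20G221401, chromosome 20, 45584440 to 45586331) fell after PPZ. It was at 2.89, 7.46 and 6.92 CPM in mock, 3.19, 2.82 and 1.91 CPM in BL, 1.27, 1.70 and 0.883 CPM in PPZ, and 8.42, 5.62 and 3.04 CPM in PPZ plus BL. PPZ was the lowest group and did not overlap the others, and PPZ plus BL overlapped mock. The change was -2.16 ± 0.42 after PPZ (adjusted p = 7.40e-03) and 2.13 ± 0.42 for PPZ plus BL against PPZ (adjusted p = 5.76e-03). The first call was lost without mock 2, mock 3 or any PPZ library (adjusted p 2.04e-02 to 3.06e-02) and the other without any PPZ library or PPZ plus BL 2 (1.42e-02 to 2.09e-02). AMT1.1 (Glyma.20G082450, chromosome 20, 31080736 to 31082822) was called nowhere. Its group means were 40.6 ± 5.08 CPM in mock, 38.8 ± 9.80 CPM after BL, 27.3 ± 7.07 CPM after PPZ and 32.7 ± 6.48 CPM after PPZ plus BL. A gene model of 315 bases with the same Pfam domain, Glyma.20G082500, lies on the opposite strand within it, and since the use of strand in counting is not stated, reads of this pair cannot be told apart.

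The AMT2 and AMT3 types also split. AMT2.1 (Glyma.07G153800, chromosome 7, 18651590 to 18658607) was at 34.6, 32.4 and 32.2 CPM in mock, 21.8, 36.3 and 38.5 CPM in BL, 101, 70.7 and 77.7 CPM in PPZ, and 29.9, 16.7 and 27.1 CPM in PPZ plus BL. PPZ stood above every other group. The rise after PPZ was 1.33 ± 0.15 (adjusted p = 1.1e-03), under the fold threshold, and PPZ plus BL against PPZ was called at -1.77 ± 0.23 (adjusted p = 9.21e-04), a call lost without PPZ plus BL 2, where the fold change of -1.55 missed the threshold. AMT2.1 overlaps a gene on the other strand, with the same limit as AMT1.1. AMT2.2 (Glyma.18G204800) was also highest by mean after PPZ, with 8.46 ± 0.828 CPM in mock, 6.63 ± 3.87 CPM after BL, 15.5 ± 2.61 CPM after PPZ and 7.82 ± 4.31 CPM after PPZ plus BL, and was not called in any comparison. AMT2.3 (Glyma.01G123400, chromosome 1, 43636921 to 43644349) fell in every treatment. It was at 6.34, 6.35 and 6.88 CPM in mock and between 0.246 and 1.29 CPM in the 9 treated libraries. The changes were -4.10 ± 0.28 after BL (adjusted p = 3.71e-04), -4.13 ± 0.30 after PPZ (4.10e-04) and -3.05 ± 0.35 after PPZ plus BL (1.54e-03), and all 3 calls held without any 1 library.

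AMT3.1 (Glyma.05G196500, chromosome 5, 38078404 to 38083844) rose in both groups with BL. Its levels were 2.28, 0.578 and 0.765 CPM in mock, 13.4, 11.2 and 11.7 CPM in BL, 4.79, 3.65 and 7.90 CPM in PPZ, and 12.8, 13.9 and 11.3 CPM in PPZ plus BL. The groups ran from mock through PPZ to the groups with BL, which overlapped each other but not the rest. The change was 3.34 ± 0.45 after BL (adjusted p = 2.16e-03) and 3.40 ± 0.45 after PPZ plus BL (adjusted p = 2.28e-03). The call after BL was lost without any 1 BL library (adjusted p up to 1.20e-02) and that after PPZ plus BL without its libraries 2 or 3 (up to 1.45e-02). After PPZ the value was 2.18 ± 0.54 (adjusted p = 1.74e-02), which became a call of 2.96 without mock 1 (adjusted p = 1.69e-03). The other 6 ammonium transporters with reads had less than 1 FPKM, and AMT4.3 (Glyma.19G244400) and Glyma.10G030800 had none.

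**Figure D3:**
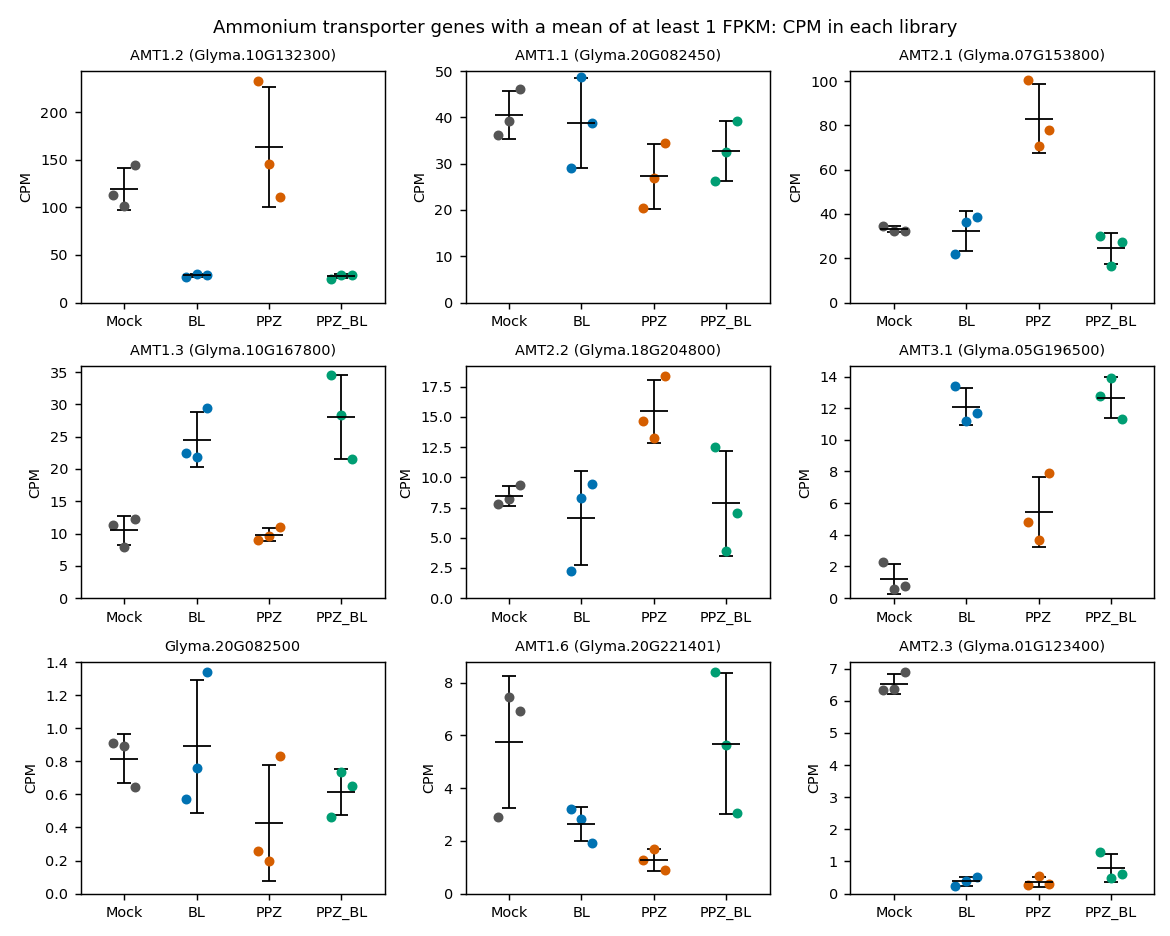
CPM in each library of the 9 ammonium transporter genes with a mean of at least 1 FPKM, 1 panel per gene with its own axis from 0, where points are libraries, bars are means and whiskers are SD (n = 3). AMT1.2 drops to between 25 and 30 CPM in the 6 libraries with BL, AMT2.1 peaks at 70.7 to 101 CPM in PPZ, and AMT2.3 is above 6 CPM in mock only.

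In the POT family, the 3 most expressed genes were all highest by mean after PPZ plus BL. Only for Glyma.03G122500 did these libraries not overlap those of BL, and PPZ plus BL was not tested against BL. Glyma.01G210500 (chromosome 1, 55297618 to 55301631) was at 141, 106 and 109 CPM in mock, 278, 257 and 295 CPM in BL, 126, 138 and 212 CPM in PPZ, and 578, 396 and 284 CPM in PPZ plus BL. The libraries with BL lay above those without it. The rise after PPZ plus BL was called at 1.82 ± 0.27 (adjusted p = 3.49e-03), while that after BL, 1.22 ± 0.15 (adjusted p = 1.57e-03), stayed under the fold threshold. The call was lost without mock 2, mock 3 or PPZ plus BL 2 (adjusted p up to 2.09e-02) and without PPZ plus BL 1, where the fold change was 1.51.

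Glyma.11G031500 (chromosome 11, 2302616 to 2306989) was at 147, 120 and 165 CPM in mock, 199, 189 and 214 CPM in BL, 58.6, 80.3 and 141 CPM in PPZ, and 374, 271 and 201 CPM in PPZ plus BL. PPZ was the lowest group by mean and overlapped mock. For PPZ plus BL against PPZ its difference of 1.58 ± 0.35 (adjusted p = 9.82e-03) fell just short of the fold threshold. Without PPZ 3 it was called at 1.98 (adjusted p = 2.44e-03), and without PPZ plus BL 3 at 1.78 (adjusted p = 9.48e-03).

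Glyma.03G122500 (chromosome 3, 34745466 to 34750494) rose in both groups with BL. It was at 35.6, 32.8 and 46.2 CPM in mock, 169, 188 and 171 CPM in BL, 46.1, 60.8 and 77.5 CPM in PPZ, and 216, 236 and 207 CPM in PPZ plus BL. Libraries with BL started at 169 CPM and the rest reached at most 77.5 CPM. The change was 2.21 ± 0.16 after BL (adjusted p = 4.42e-04), 2.52 ± 0.18 after PPZ plus BL (3.91e-04) and 1.82 ± 0.19 for PPZ plus BL against PPZ (3.32e-04), and every one of these calls held without any 1 library. A pair of less expressed POT genes, Glyma.04G036100 (chromosome 4, 2840911 to 2845070) and Glyma.06G036200 (chromosome 6, 2763035 to 2766947), were likewise highest after PPZ plus BL. Glyma.04G036100 was at 4.06, 1.94 and 1.37 CPM in mock, 10.1, 7.67 and 7.09 CPM in BL, 2.90, 3.90 and 6.08 CPM in PPZ, and 24.6, 19.3 and 16.8 CPM in PPZ plus BL. Its rise after PPZ plus BL was 3.06 ± 0.38 against mock (adjusted p = 1.88e-03, lost without mock 2 or PPZ plus BL 2 with adjusted p up to 1.22e-02) and 2.22 ± 0.27 against PPZ (6.79e-04). After BL it was 1.77 ± 0.39 (adjusted p = 1.09e-02), just past the limit, and it was called by DESeq2 (1.18e-04), with 4 other settings of the edgeR fit (adjusted p 2.24e-03 to 9.37e-03) and without mock 1 (2.33, 3.92e-04). Glyma.06G036200 rose by 1.99 ± 0.34 over PPZ (adjusted p = 3.22e-03), from 6.59 ± 3.57 CPM to 26.4 ± 4.58 CPM, and the call was lost without PPZ 2 or PPZ plus BL 2 (adjusted p up to 1.77e-02). Its rise over mock, 2.38 ± 0.42 (adjusted p = 5.86e-03), held in 1 of the 6 fits without 1 library, the one without mock 1, and otherwise had an adjusted p of up to 2.96e-02.

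A pair of POT genes rose in all 3 treatments. Glyma.15G016900 (chromosome 15, 1308121 to 1313467) was at 2.03, 1.26 and 0.805 CPM in mock, 10.1, 10.4 and 12.9 CPM in BL, 8.45, 9.69 and 10.3 CPM in PPZ, and 9.20, 14.4 and 16.0 CPM in PPZ plus BL. Every treated library was above every mock library and the treated groups overlapped. Its changes of 3.04 ± 0.32 after BL (adjusted p = 1.13e-03), 2.81 ± 0.32 after PPZ (1.12e-03) and 3.29 ± 0.37 after PPZ plus BL (1.38e-03) held without any 1 library. Glyma.14G138200 (chromosome 14, 21616366 to 21621572) was at 2.99, 1.26 and 1.89 CPM in mock, 17.4, 14.7 and 13.9 CPM in BL, 5.75, 6.39 and 10.3 CPM in PPZ, and 16.6, 22.7 and 20.6 CPM in PPZ plus BL. It rose by 2.90 ± 0.30 after BL (adjusted p = 1.05e-03) and 3.29 ± 0.30 after PPZ plus BL (7.91e-04). The smaller rise after PPZ, 1.87 ± 0.37 (adjusted p = 7.41e-03), was lost without mock 2, mock 3 or any PPZ library (adjusted p up to 2.49e-02).

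Another group of POT genes was high after PPZ and not after PPZ plus BL. Glyma.10G005400 (chromosome 10, 545257 to 550678) was at 9.44, 11 and 13.2 CPM in mock, 2.25, 3.29 and 3.52 CPM in BL, 21.1, 18.1 and 26.0 CPM in PPZ, and 6.25, 4.22 and 3.14 CPM in PPZ plus BL. PPZ was above mock and mock above both groups with BL, with no overlap. The change was -1.89 ± 0.23 after BL (adjusted p = 1.49e-03), 0.96 ± 0.19 after PPZ (7.14e-03, under the fold threshold) and -2.27 ± 0.26 for PPZ plus BL against PPZ (4.68e-04). The call after BL was lost without BL 2 (adjusted p = 1.01e-02). PPZ exceeded BL by 2.86 ± 0.21 (adjusted p = 1.32e-04).

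Glyma.17G001800 (chromosome 17, 220053 to 222309) was at 1.27, 2.78 and 2.74 CPM in mock, 2.29, 2.57 and 2.22 CPM in BL, 14.2, 9.84 and 8.49 CPM in PPZ, and 3.31, 2.66 and 2.59 CPM in PPZ plus BL. Only PPZ stood apart among the 4 groups. Its rise after PPZ was 2.25 ± 0.34 (adjusted p = 2.83e-03, lost without mock 2, PPZ 1 or PPZ 2 with adjusted p up to 1.30e-02), and PPZ plus BL against PPZ gave -1.94 ± 0.23 (6.13e-04), which held without any 1 library. Glyma.02G022200 (chromosome 2, 1947730 to 1954379) was at 0.457, 1.37 and 1.09 CPM in mock, 0.532, 0.716 and 0.414 CPM in BL, 4.73, 2.55 and 3.04 CPM in PPZ, and 0.362, 0.369 and 0.499 CPM in PPZ plus BL. It was lower in PPZ plus BL than in PPZ (log2 fold change -3.07 ± 0.34, adjusted p = 4.42e-04), while PPZ against mock, 1.82 ± 0.43, missed the threshold (adjusted p = 1.45e-02) and was called by DESeq2 (7.3e-04).

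Glyma.07G272600 (chromosome 7, 44788854 to 44791041) followed at lower certainty, at 4.42 ± 1.57 CPM after PPZ and 0.871 ± 0.417 CPM after PPZ plus BL, with mock between 0.355 and 3.5 CPM. PPZ plus BL against PPZ gave -2.36 ± 0.40 (adjusted p = 2.86e-03), lost without PPZ 1, PPZ 2 or PPZ plus BL 2 (adjusted p up to 1.69e-02). Glyma.03G064000 (chromosome 3, 10685398 to 10694923), for which no RefSeq gene was matched, was close to 0 except after PPZ. It had 3 counts in the 3 mock libraries together and 96 in the PPZ libraries, a ratio of CPM of 33.9 with a 95% exact interval of 11.3 to 167, which covers counting error only. PPZ against mock was called (4.92 ± 0.63, adjusted p = 1.63e-03) and held without any 1 library, and PPZ plus BL against PPZ was -2.95 ± 0.48 (2.43e-03), lost without PPZ plus BL 2 (1.62e-02).

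A pair of POT genes rose after PPZ, and the levels of both after PPZ plus BL lay between those of mock and PPZ. Glyma.11G235200 (chromosome 11, 37904835 to 37910228), which overlaps a gene on the other strand, was at 2.84, 1.68 and 1.61 CPM in mock, 2.58, 3.96 and 2.95 CPM in BL, 9.78, 11.5 and 10.2 CPM in PPZ, and 5.17, 7.3 and 7.78 CPM in PPZ plus BL. Its rise of 2.36 ± 0.25 after PPZ (adjusted p = 9.30e-04) held without any 1 library. The rise after PPZ plus BL, 1.73 ± 0.29 (adjusted p = 5.17e-03), was lost in 5 of 6 such fits, all but the one without mock 1 (adjusted p up to 2.88e-02). Glyma.20G206300 (chromosome 20, 44244907 to 44253005) stood at 8.77 ± 2.19 CPM in mock, 15.9 ± 5.92 CPM after BL, 29.5 ± 7.53 CPM after PPZ and 19.8 ± 2.86 CPM after PPZ plus BL. It rose by 1.75 ± 0.24 after PPZ (adjusted p = 2.15e-03), a call lost without mock 2 or PPZ 3, where the fold change fell to as little as 1.52. Against mock, PPZ plus BL gave 1.18 ± 0.20 (adjusted p = 5.85e-03), under the fold threshold.

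A further set of POT genes was highest in mock. Glyma.17G153300 (chromosome 17, 12803055 to 12809000) was at 16.0, 56.4 and 46.2 CPM in mock, 2.01, 2.15 and 3.67 CPM in BL, 0.560, 0.500 and 0.441 CPM in PPZ, and 1.70, 2.79 and 2.99 CPM in PPZ plus BL. Mock was far above all other libraries and PPZ below all others, and mock 1 was the lowest mock library. The change was -3.93 ± 0.51 after BL (adjusted p = 1.94e-03), -6.29 ± 0.57 after PPZ (5.90e-04) and -3.98 ± 0.50 after PPZ plus BL (1.96e-03). PPZ plus BL was higher than PPZ by 2.29 ± 0.32 (adjusted p = 1.16e-03). The calls after PPZ and for PPZ plus BL against PPZ held without any 1 library, while that after BL was lost without BL 1 or BL 2 and that after PPZ plus BL without any 1 of its own libraries (adjusted p up to 1.38e-02).

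Glyma.05G070600 (chromosome 5, 7572638 to 7578732) repeated this order at a lower level, at 1.98, 9.19 and 8.97 CPM in mock and at most 0.842 CPM in the treated libraries. It fell by 5.28 ± 0.73 after PPZ (adjusted p = 2.08e-03), by 3.51 ± 0.68 after BL (7.00e-03) and by 3.75 ± 0.68 after PPZ plus BL (6.64e-03). The PPZ libraries held only 4, 3 and 3 counts of it, so that the size of that fall rests on few counts. The calls after BL and after PPZ plus BL each held in 1 of 6 fits without 1 library, the one without mock 1, and that after PPZ was lost without any 1 PPZ library, with adjusted p up to 3.01e-02 over the 3 comparisons. Glyma.14G191300 (chromosome 14, 46470695 to 46475930), at 1.1 ± 0.372 CPM in mock, fell by 2.39 ± 0.42 after BL (adjusted p = 4.93e-03) and by 2.70 ± 0.54 after PPZ (7.81e-03). It too had few counts there, 4, 6 and 4 in BL and 1, 4 and 5 in PPZ. Both calls held in only 1 of 6 such fits, the one without mock 1 (adjusted p otherwise up to 3.45e-02). Glyma.05G136300 (chromosome 5, 32901110 to 32907491) was at 5.94, 8.88 and 8.81 CPM in mock, 3.89, 3.16 and 2.69 CPM in BL, 2.04, 1.40 and 1.81 CPM in PPZ, and 5.73, 3.77 and 3.99 CPM in PPZ plus BL. Its fall of 2.17 ± 0.25 after PPZ (adjusted p = 1.13e-03) held without any 1 library, and that of 1.27 ± 0.23 after BL (5.55e-03) was under the fold threshold.

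**Figure D4:**
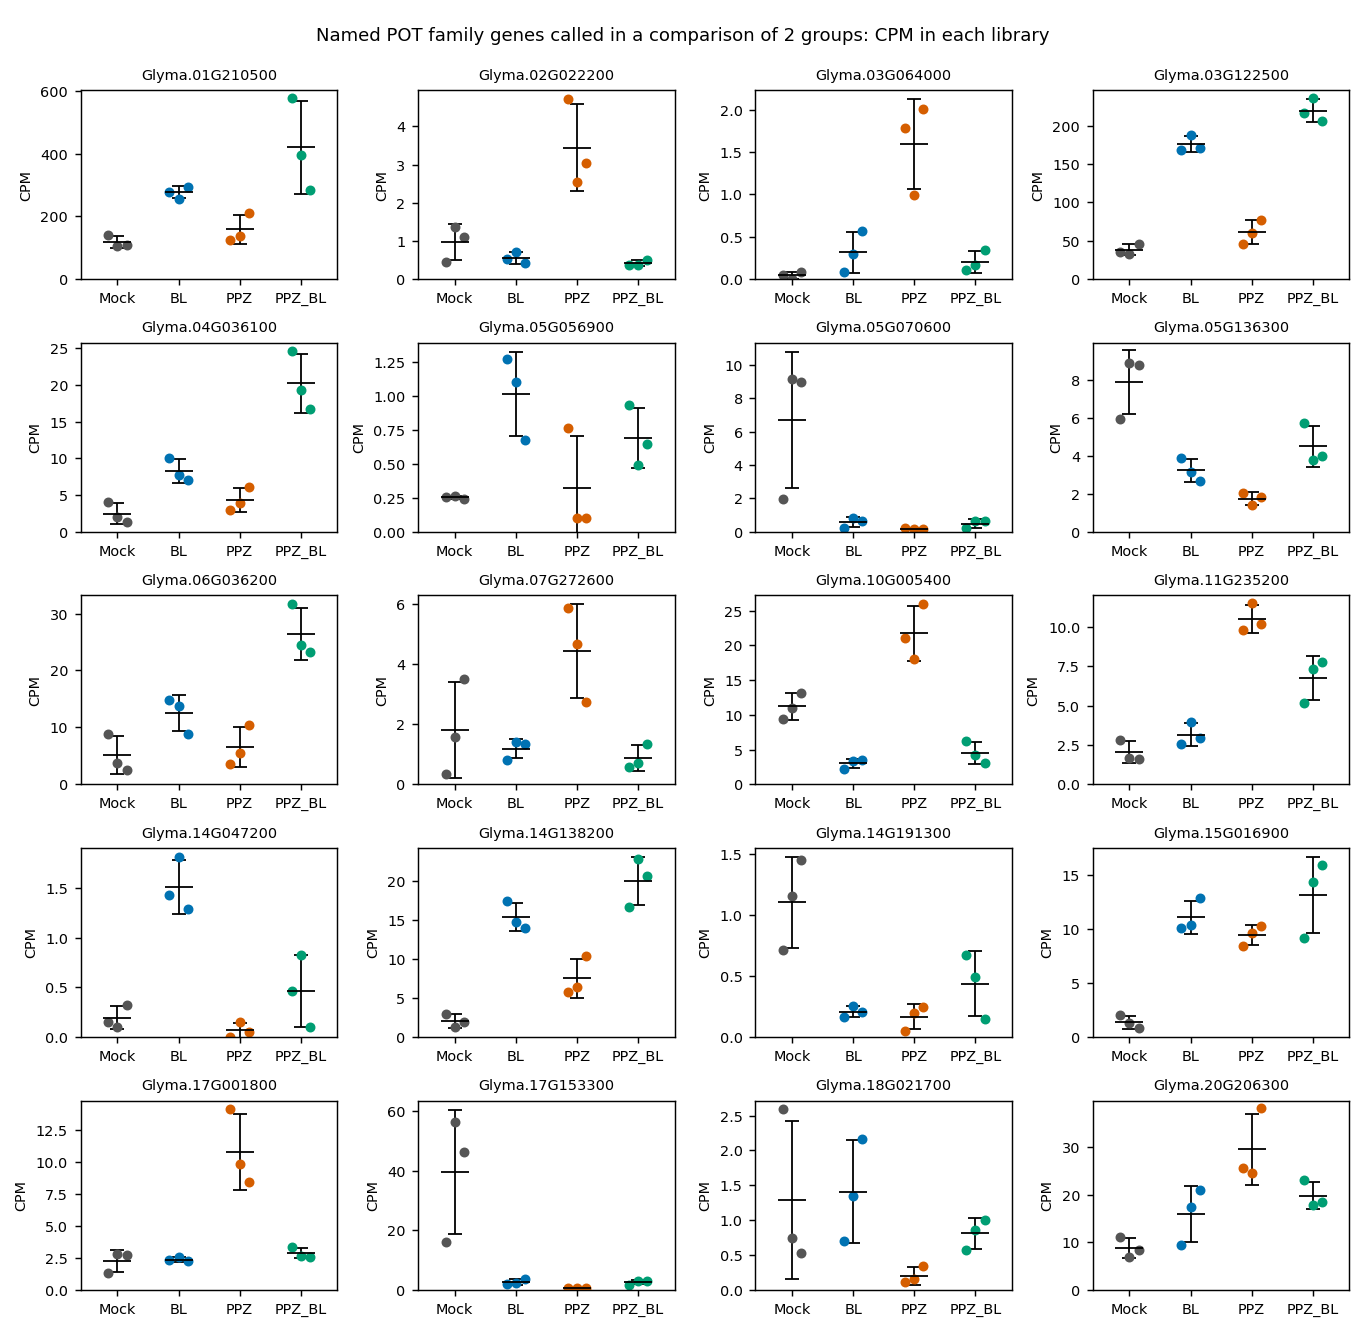
CPM in each library of the 20 named POT genes that were called between a pair of groups, 1 panel per gene with its own axis from 0, where points are libraries, bars are means and whiskers are SD (n = 3). Glyma.03G122500 is at 169 CPM or more in the 6 libraries with BL and at 77.5 CPM or less in the rest, Glyma.17G001800 is high in PPZ only, and Glyma.17G153300 is high in mock only, with mock 1 at 16.0 CPM below the other mock libraries.

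The remaining named POT genes with a call had low levels. Glyma.14G047200, on chromosome 14 and overlapping a gene on the other strand, was at 1.51 ± 0.268 CPM after BL and 0.193 ± 0.114 CPM in mock, a rise of 2.88 ± 0.43 (adjusted p = 2.84e-03) that was lost without mock 2 or any BL library (up to 1.67e-02). It had 103 counts in BL and 4 in PPZ, a ratio of CPM of 22.9 with a 95% exact interval of 8.68 to 85.7. Glyma.05G056900 rose by 2.00 ± 0.38 after BL, from 0.253 ± 0.0106 CPM to 1.01 ± 0.307 CPM (adjusted p = 6.60e-03), and the call was lost in each of the 6 fits without 1 library (up to 3.10e-02). Glyma.18G021700 was lower after PPZ than after BL (-2.76 ± 0.59, adjusted p = 7.36e-03) and kept this call in 1 of 6 such fits, the one without BL 1.

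A few highly expressed POT genes were not called. Glyma.10G183900, which RefSeq names NRT1-3, a nitrate transporter 1 gene, was at 26.5, 42.9 and 67.5 CPM in mock, 48.5, 77.8 and 67.7 CPM in BL, 74.7, 77.5 and 93.4 CPM in PPZ, and 87.3, 67.4 and 55.4 CPM in PPZ plus BL. PPZ lay above mock without overlap, and the difference of 0.84 ± 0.31 did not pass (adjusted p = 6.48e-02). Glyma.08G091600 had means between 45.2 ± 3.78 CPM after BL and 66.6 ± 13 CPM in mock.

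Neighbouring members did not always move together. In all, 48 members lay in 18 runs of adjacent genes no more than 20 kb apart, the largest with 7 POT genes on chromosome 11 from 36754522 to 36834176, of which 3 had reads and 1 reached 1 FPKM. In 13 of the 18 runs at most 1 gene reached a mean of 1 FPKM. Glyma.15G017000 (chromosome 15, 1317768 to 1321197) is the neighbour of Glyma.15G016900. It was at 45.8, 63.6 and 65.5 CPM in mock, 52.5, 82.9 and 83.4 CPM in BL, 25.4, 30 and 24.1 CPM in PPZ, and 73.5, 61.7 and 70.2 CPM in PPZ plus BL. PPZ was below every other library, where its neighbour had risen after PPZ. The difference after PPZ was -1.14 ± 0.17 (adjusted p = 2.68e-03) and that for PPZ plus BL against PPZ 1.35 ± 0.13 (2.14e-04), both under the fold threshold. Beside Glyma.03G122500 lie Glyma.03G122900 and Glyma.03G123000, chosen here as its neighbours after their values were seen. Glyma.03G123000 rose by 1.74 ± 0.36 after PPZ (adjusted p = 9.48e-03) and by 2.08 ± 0.35 after PPZ plus BL (5.33e-03), each call held in only 1 of 6 fits without 1 library, and Glyma.03G122900 was not called. Reads shared between near-identical neighbours could be split by the counting, and the identity of these sequences was not examined here.

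The interaction term asked whether the BL difference is the same with and without PPZ, as the difference for PPZ plus BL against PPZ minus that for BL against mock. With the adjusted p limit of 0.01 alone and no fold threshold, it was called for 12 of 85 members tested, or 14.1% beside 17.4% of all genes (7.73% positive, 9.69% negative). Of the 12, 8 had a positive and 4 a negative term. Without mock 1 it was called for 27 of 88 members, or 30.7% beside 24.2% of all genes. The largest positive terms belonged to genes that were highest in mock, whose level enters the term with a positive sign. Glyma.17G153300 had a term of 6.24 ± 0.68 (adjusted p = 1.46e-04), falling after BL without PPZ and rising with it, and AMT2.3 a term of 5.19 ± 0.58 (1.63e-04). Their counts in the PPZ libraries were 11, 10 and 9 for Glyma.17G153300 and 5, 11 and 6 for AMT2.3. In the PPZ plus BL libraries they were 33, 68 and 60 for Glyma.17G153300 and 25, 12 and 12 for AMT2.3. The part of low counts in these terms was not tested. AMT1.6 had 3.26 ± 0.61 (adjusted p = 2.40e-03) and Glyma.05G136300 2.63 ± 0.34 (3.72e-04). The negative terms included Glyma.15G016900 at -2.56 ± 0.39 (adjusted p = 8.10e-04), which rose after either treatment, Glyma.17G001800 at -1.98 ± 0.40 (3.56e-03), and AMT2.1 at -1.72 ± 0.34 (3.20e-03), in both of which BL against mock was near 0 (0.06 and -0.03).

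The genes that work with these transporters were taken from Pfam lists of the nitrogen pathway. The nitrate transport accessory protein NAR2 (Glyma.05G042200), a partner of NRT2 nitrate transporters in Arabidopsis, was at 81.0, 66.1 and 95.7 CPM in mock, 156, 180 and 202 CPM in BL, 60.2, 71.6 and 117 CPM in PPZ, and 390, 278 and 201 CPM in PPZ plus BL. Libraries with BL lay above those without it, as for Glyma.03G122500. It rose by 1.84 ± 0.27 after PPZ plus BL against mock (adjusted p = 3.19e-03) and by 1.79 ± 0.31 against PPZ (3.47e-03), and the value after BL, 1.15, was under the fold threshold.

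Most nitrate reductase genes tested were higher in every treatment. The list is set by a pair of Pfam domains that sulfite oxidase also carries, and of its 5 genes 4 were tested, of which 3 rose after each of BL, PPZ and PPZ plus BL. Glyma.13G084000 was at 42.0 ± 17.7 CPM in mock, 591 ± 148 CPM after BL, 605 ± 201 CPM after PPZ and 730 ± 123 CPM after PPZ plus BL. Its rise was 3.82 ± 0.37 after BL (adjusted p = 9.51e-04), 3.85 ± 0.41 after PPZ (9.27e-04) and 4.12 ± 0.36 after PPZ plus BL (6.56e-04). Glyma.06G109200 was at 68.9 ± 25.9 CPM in mock and rose most after PPZ, to 1007 ± 34.3 CPM (3.87 ± 0.32, adjusted p = 5.03e-04), against 301 ± 103 CPM after BL and 350 ± 38.8 CPM after PPZ plus BL. Glyma.14G165000 had no counts in mock and was at least 24.3-fold higher after BL, 19.4-fold after PPZ and 30.6-fold after PPZ plus BL, with 3 counts per library as the floor. The fourth gene, Glyma.19G071800, fell after PPZ (-1.63 ± 0.11, adjusted p = 2.97e-04). In the list of nitrite and sulfite reductases, Glyma.07G212800 rose in all 3 treatments by 1.79 to 1.90, from 173 ± 33.4 CPM in mock, the only 1 of 4 genes to do so. In the same list Glyma.02G132100 rose after PPZ plus BL (1.79 ± 0.23, adjusted p = 2.22e-03) and Glyma.12G019400 fell after PPZ (-1.93 ± 0.19, adjusted p = 6.85e-04). Without mock 1, 2 of the 4 were called higher after BL.

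Among the enzymes that assimilate ammonium, the glutamine synthetase and glutamate synthase genes called after every treatment were lower. Glyma.09G173200, a glutamine synthetase gene, was at 205, 212 and 205 CPM in mock, 43.1, 39.5 and 40.1 CPM in BL, 57.9, 56.8 and 50.2 CPM in PPZ, and 19.8, 31.3 and 33.6 CPM in PPZ plus BL. It fell by 2.34 ± 0.11 after BL (adjusted p = 1.04e-04), by 1.91 ± 0.12 after PPZ (2.77e-04) and by 2.87 ± 0.22 after PPZ plus BL (4.83e-04). In that list of 9 genes, 7 were tested, and Glyma.15G102000 rose after BL (1.94 ± 0.31, adjusted p = 3.58e-03) and after PPZ plus BL (1.87 ± 0.28, adjusted p = 3.35e-03). Glyma.04G236900, a glutamate synthase gene, fell from 1264 ± 261 CPM in mock to 357 ± 66.9 CPM after BL, 355 ± 51.5 CPM after PPZ and 382 ± 68.1 CPM after PPZ plus BL, the only gene called of 6 tested, where 2 were lower after PPZ plus BL without mock 1. Glutamate dehydrogenase genes were called higher only, 2 of 9 tested after each treatment against mock, and 4 after PPZ without mock 1. Glyma.16G153400 among them stood at 2.44 ± 2.03 CPM in mock, 102 ± 38.9 CPM after PPZ and 6.32 ± 1.1 CPM after PPZ plus BL, which made PPZ plus BL lower than PPZ (log2 fold change -4.03 ± 0.30, adjusted p = 8.65e-05).

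**Figure D5:**
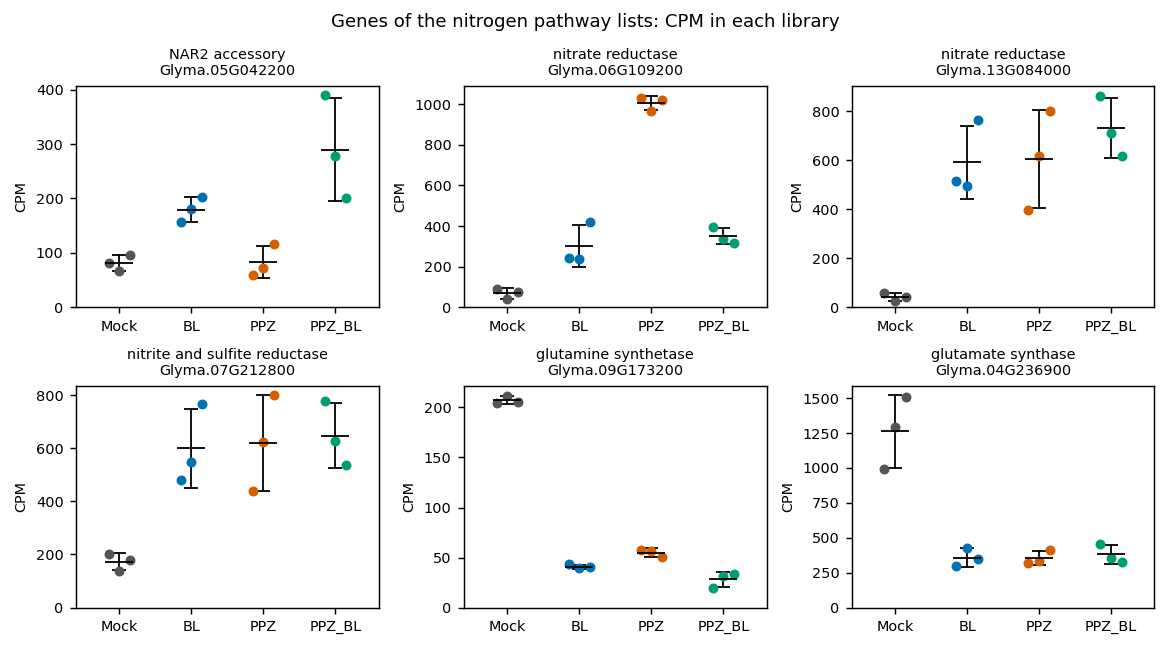
CPM in each library of 6 genes of the nitrogen pathway lists, the NAR2 accessory gene, 2 nitrate reductase genes, a nitrite or sulfite reductase gene, a glutamine synthetase gene and a glutamate synthase gene, with points for libraries, bars for means and whiskers for SD (n = 3). Both nitrate reductase genes reach at most 90.6 CPM in mock and at least 240 CPM in each treated library, while the glutamine synthetase gene drops from at least 205 CPM in mock to at most 57.9 CPM.

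Further lists held other carriers, regulators and markers of cell types. The single gene with the sodium solute symporter domain of urea carriers, Glyma.04G123700, fell after BL, PPZ and PPZ plus BL by 3.84 ± 0.67, 3.72 ± 0.66 and 3.41 ± 0.65 (adjusted p = 4.70e-03, 5.12e-03 and 7.88e-03), from 19.1, 110 and 133 CPM in mock to between 5.79 and 9.39 CPM in the treated libraries. Of 11 slow anion channel genes, 6 were tested against mock, with 2 lower after BL, 2 after PPZ and 1 after PPZ plus BL, and none higher, with 3 lower after PPZ when mock 1 was left out. Among 28 RWP-RK factors, a family that holds the NIN-like regulators of nitrate response, 13, 11 and 11 were tested against mock after BL, PPZ and PPZ plus BL. Of those tested, none was higher and 1, 2 and 1 were lower. Glyma.11G125500 was the one lower in each, at -2.99 ± 0.48, -4.98 ± 0.60 and -2.45 ± 0.42 (adjusted p = 3.65e-03, 1.34e-03 and 5.48e-03). Of 8 asparagine synthetase genes, 1 was higher and 1 lower after PPZ plus BL and 1 lower after BL, and without mock 1 the higher count after PPZ plus BL was 2. CLC channels had 1 of 12 genes called against mock, lower after PPZ, and without mock 1 another was higher after PPZ and 1 after PPZ plus BL. OPT oligopeptide transporters had 1 higher and 2 lower of 21 tested after BL, 1 lower after PPZ, and 1 higher and 1 lower after PPZ plus BL, which became 2 lower without mock 1. Histone genes, a mark of dividing cells, were called higher in 34 of 57 tested after BL, 9 after PPZ and 11 after PPZ plus BL and lower in none, and cyclin genes in 18, 10 and 7 of 71 to 73 tested, with 1 lower after PPZ. Without mock 1 the higher counts were 34, 19 and 20 for histone genes and 25, 20 and 22 for cyclin genes, with none lower. A list of 80 genes was picked by the Casparian strip domain alone, and those of the endodermis were not told apart in it. Its genes were split, with 1 higher and 3 lower of 54 tested after BL, 6 higher and 1 lower of 55 after PPZ, and 1 higher and 2 lower of 54 after PPZ plus BL. Their higher counts without mock 1 were 10, 11 and 9, and their lower counts 3, 1 and 4. The part of these markers in the transporter results was not tested.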

How the data were processed

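RNA-seq counts and FPKM values of 12 root tip libraries were used. The authors aligned reads with HISAT2 2.0.5, counted them per gene with featureCounts 1.5.0-p3 and deposited raw counts and FPKM values, with gene IDs tagged Wm82.a4.v1. Whether counting used strand is not given in the sources used here. The deposited table also holds fold changes and p-values of the authors' own comparisons, which were not used. The counts were tested with edgeR 4.0.16 under R 4.3.3 (filterByExpr, TMM, glmQLFit and glmQLFTest), on 6 libraries per comparison and on 12 for the interaction, with Benjamini-Hochberg adjustment over every gene tested. SE is the log2 fold change over the square root of F. Tables and exact intervals were made with pandas 2.3.3 and SciPy 1.17.1. The scripts were checked on simulated counts.

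Coordinates are those of the deposited table. RefSeq symbols (Glycine_max_v4.0) were matched by position, with an overlap of at least 0.5 of the longer gene, for 130 of 145 members, of which 15 had a symbol that names the transporter. Members and lists were chosen with earlier results of these data known. Named genes were the 6 called members with the largest rise and the 6 with the largest fall in each comparison of a pair of groups, provided that the groups did not overlap and that no library of the higher one had under 10 counts. The 6 POT and 4 ammonium transporter genes of highest level per length were added, with the 6 called members of smallest interaction p. Genes that RefSeq calls NPF6.3, NPF6.4, NPF7.2 or NPF7.3 were to be added as well. Only RefSeq symbols were matched, however, and nearly all symbols of POT members were locus numbers. NPF subfamilies could therefore not be assigned, and whether such genes are among the members is not known.

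The alternatives were DESeq2 1.42.0, other scalings (median-ratio factors, library size alone), no count filter, 1 fit over 12 libraries, a block for replicate number, dropping the fold threshold, and omission of single libraries. Counting the list genes without mock 1 was added after the data had been seen. The study speaks of 3 biological replicates for mock, BL and PPZ, without the number of plants, and p-values measure the spread between these libraries. No pair of replicate libraries held the same counts.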

Additional observations from a re-analysis of the deposited data

Results flagged for a closer look

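The interaction test called 12 of 85 members (adjusted p of 0.01 or less, edgeR's quasi-likelihood test). This was 14.1% beside 17.4% of all genes, so that such a call was not more frequent among the members. Of the 10 of them that were named, the terms on the log2 scale were 6.24 for Glyma.17G153300, 5.19 for AMT2.3 (Glyma.01G123400), 5.06 for Glyma.05G070600, 3.76 for Glyma.14G191300, 3.26 for AMT1.6 (Glyma.20G221401) and 2.63 for Glyma.05G136300 on the positive side. On the negative side they were -5.49 for Glyma.03G064000, -2.56 for Glyma.15G016900, -1.98 for Glyma.17G001800 and -1.72 for AMT2.1 (Glyma.07G153800). The 2 others, named here after their values were seen, were Glyma.08G091651 at 2.71 and Glyma.05G061000 at 1.11. Of the named genes, 6 kept the call in each of the 12 fits without 1 library, Glyma.17G153300, AMT2.3, AMT1.6, Glyma.05G136300, Glyma.15G016900 and AMT2.1. Glyma.14G191300 was called in 3 of the 12, lost without mock 2, mock 3, any BL library, PPZ 1, PPZ 2, PPZ plus BL 1 or PPZ plus BL 2 (adjusted p up to 1.65e-02). Glyma.05G070600 lost it without PPZ 2, PPZ plus BL 2 or PPZ plus BL 3 (up to 1.36e-02), Glyma.17G001800 without BL 2 or PPZ plus BL 2 (up to 1.12e-02) and Glyma.03G064000 without BL 3 (1.20e-02). In the 6 genes with a positive term, mock was the group with the highest mean, and the mock level enters the term with a positive sign. Of these, Glyma.05G070600 and Glyma.14G191300 had at most 5 counts in any PPZ library.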

How the results depend on the processing

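No named gene reversed its direction under any alternative where it was called in either fit, and the summed levels of both families stayed within the spread between libraries. Counts of members called, leaving out 1 library at a time, ranged from 5 to 24 after BL against mock, from 7 to 21 after PPZ, from 5 to 23 after PPZ plus BL, from 7 to 15 for PPZ plus BL against PPZ, from 7 to 10 for PPZ against BL and from 8 to 27 for the interaction, beside 13, 14, 13, 12, 10 and 12. The share of all genes called moved as well. At the low end it was 6.25% of members beside 2.59% of all genes after BL, and 6.17% beside 1.8% after PPZ plus BL. Without PPZ plus BL 2 it was 9.09% beside 5.69% for PPZ plus BL against PPZ. Without BL 2 it was 8.97% beside 5.16% for PPZ against BL and 8.99% beside 10.7% for the interaction. A fit with fewer libraries has less power, and leaving out mock 1 still raised the counts with mock. With no fold threshold, 24 members passed for PPZ plus BL against PPZ (15 higher, 9 lower), or 31.2% beside 19.5% of all genes (8% higher, 11.5% lower), and 24 for PPZ against BL (12 and 12), or 31.6% beside 26.5%. DESeq2 called 23 members in the interaction (11 higher, 12 lower), or 19% beside 20.8%. Replicate numbers did not pair the libraries, since same-numbered libraries of a pair of groups correlated between -0.303 and 0.152 in their deviations from the group means. With the replicate number as a block, 6 members were called after PPZ plus BL against mock, or 7.69%, and over all genes the share fell there from 6.84% to 2.1%. The block gave 11 members after BL, or 13.9% beside 6.55% of all genes, and 10 after PPZ, or 13.2% beside 6.72%. Library size as the only scaling moved the median of all genes by -0.12 for PPZ against mock, 0.18 for PPZ plus BL against PPZ, -0.16 for PPZ against BL and 0.12 for the interaction. Values of genes under 1 FPKM rest on few counts.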

Other observations

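A few well expressed POT genes outside the rule for named genes were chosen after their values were seen, and are given as values. Glyma.18G064900, at 14.6 FPKM over the 12 libraries, was at 52.3, 64.3 and 87.4 CPM in mock, 24.5, 25.9 and 31.1 CPM in BL, 65.6, 59.3 and 59.4 CPM in PPZ, and 23.7, 24.1 and 25.3 CPM in PPZ plus BL. Libraries with BL lay below all others, as for AMT1.2. The change was -1.32 ± 0.20 after BL and -1.35 ± 0.10 for PPZ plus BL against PPZ on the log2 scale, under the fold threshold in both. Glyma.03G072100, at 11.4 FPKM, was at 4.16, 10.3 and 14.6 CPM in mock and between 22.2 and 46.9 CPM in the treated libraries, with changes of 1.36 ± 0.40 after BL, 1.60 ± 0.39 after PPZ and 1.88 ± 0.42 after PPZ plus BL that did not pass the adjusted p of 0.01.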
